A study of Mus musculus with 8 samples.

Results

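The 8 genes described here encode serine proteases, most of them held at the cell surface, and inhibitors of serine proteases. Of the 5 protease genes, 4 encode membrane-anchored enzymes: St14 matriptase, Prss8 prostasin, and Tmprss2 and Tmprss4 transmembrane proteases. Prss22 encodes tryptase epsilon, which is known as a secreted enzyme. The 3 inhibitor genes are Spint1 and Spint2, which encode the membrane-bound Kunitz inhibitors HAI-1 and HAI-2, and Spink12, which encodes a Kazal-type inhibitor. They were selected by gene symbol from 24346 symbols, with their difference between the groups already known, so their levels in that comparison are a description and carry no test.

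Epithelia use surface serine proteases to cut other membrane proteins and secreted precursors outside the cell. Matriptase and prostasin act in a shared cascade, and HAI-1 and HAI-2 bind matriptase and prostasin and hold their activity down; without these inhibitors, epithelial integrity is lost. Known targets of the system include epithelial sodium channel subunits, the protease-activated receptor encoded by F2rl1 and the precursor of hepatocyte growth factor.

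RNA from uterine epithelium was sequenced in 8 libraries, 3 labelled control and 5 labelled Smad2/3 cKO (cKO below). The cKO mice were homozygous for floxed Smad2 (exons 9 and 10) and floxed Smad3 (exons 2 and 3) and carried Cre knocked in at the progesterone receptor gene (Pgr-cre), all on a mixed C57BL/6/129S6/SvEv background. The alleles of the control mice beyond the word control, the mouse age and the cycle stage are not given in these sources. Pgr-cre is active in other organs too (ovary, oviduct, mammary gland and pituitary, per the labels), and a uterine library also holds RNA of any cell that does not express Cre. The titles of cKO 1 and cKO 2 carry numbers from another run of numbers than the remaining 6 titles (the main title series below), which is treated as a possible batch; no label says that libraries came from separate animals, so errors and p-values measure the spread between libraries, which may be technical in part.

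Values are scaled FPKM, the authors' fragments scaled by transcript length and by mapped fragments after scaling between libraries, so that levels can be compared between genes per length. Estimated depth was 43.7 to 54.9 M mapped fragments per library. Of the targeted genes, Smad2 went from 6.07 ± 0.342 (SD, n = 3) to 3.58 ± 0.378 scaled FPKM (SD, n = 5), below every control in all 5 cKO libraries. Smad3 was 28.2 ± 3.07 against 30.7 ± 8.97, and a value summed over the whole gene does not check the deletion. All 10 epithelial markers examined were at 1 scaled FPKM or above in every library, and their summed level was 5138 to 5593 in control and 4279 to 8207 in cKO. Summed stromal markers were 114 to 255 against 56.9 to 251, and summed smooth muscle markers 56.3 to 327 against 15.3 to 105, with control 1 the highest. Summed leukocyte markers were 374 to 527 against 338 to 1923, but genes of that list went opposite ways. By group means S100a8 was 65.0 against 397 and S100a9 207 against 841, with overlap; Ptprc was 2.03 against 5.97, above all controls in each cKO library. Itgam was 51.2 against 6.28, below all controls in each cKO library, Cd68 was 101 against 68.5 with overlap, and Cd3e was under 1 throughout. Of 6 mast cell markers, Cpa3, Mcpt4, Cma1, Tpsb2 and Fcer1a were under 1 in every library, and Kit was 1.34 ± 0.302 against 3.55 ± 0.906 (SD), above all controls in each cKO library. The part of other cell types in the results below was not tested, and in such bulk libraries fewer cells of a type and less RNA per cell cannot be told apart.

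What makes the 5 protease genes a family can be read from their coding sequence around the catalytic serine. The stretches below are 30 coding bases each, 5′ to 3′, from GENCODE M21 transcripts (mouse GRCm38, the same assembly as mm10), with the codon of the catalytic serine in capitals.
St14: tgccagggtgacTCTggtggccccttgtca
Prss8: tgccagggtgacTCTgggggcccactctct
Prss22: tgtctgggcgacTCTgggggtcccctgatg
Tmprss2: tgccagggagacAGTggagggccgctggtt
Tmprss4: tgccagggtgacAGTggtgggcctttgatg
The serine is codon 805 of 855 in St14, 238 of 339 in Prss8, 242 of 307 in Prss22, 439 of 490 in Tmprss2 and 385 of 435 in Tmprss4. St14 and Prss8 share 25 of the 30 bases, and Tmprss2 and Tmprss4 share 24. The serine codon is TCT in St14, Prss8 and Prss22 and AGT in both Tmprss genes.

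Spint2 is deposited as 2 transcripts that differ by 171 bases, 1289 and 1460 bases long. The difference is 1 coding exon at chr7:29263595-29263765 on the minus strand of GRCm38, printed here because the 2 forms were so unequal, with in-frame cysteine codons in capitals.
Spint2 exon: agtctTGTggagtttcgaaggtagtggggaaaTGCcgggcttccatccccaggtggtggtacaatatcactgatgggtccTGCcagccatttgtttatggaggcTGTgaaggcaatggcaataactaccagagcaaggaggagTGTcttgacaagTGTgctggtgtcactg
The exon holds 6 cysteine codons, the number that ties a Kunitz inhibitor domain together. The longer transcript, with the exon, was listed at 0 in 7 of 8 libraries and at 69.2 FPKM in cKO 3 (deposited 95% interval 65.2 to 73.3), where it was 9.15% of Spint2. An exact 0 in such tables can be a failed estimate, so the share of the form with the exon is uncertain in the other libraries.

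The Kunitz inhibitor gene Spint1 (chromosome 2, 119237360 to 119249513 on mm10) exceeded all 3 controls in each cKO library. By library, controls 1 to 3 gave 69.8, 47.9 and 54.7 scaled FPKM, and cKO 1 to 5 gave 133, 150.7, 94.4, 123 and 156. The lowest cKO library, cKO 3, was still above the highest control, control 1. The group means were 57.4 ± 11.2 (SD, n = 3) and 131 ± 24.5 (SD, n = 5), a 2.29-fold difference and 1.18 ± 0.19 on the log2(scaled FPKM + 1) scale (standard error of the limma fit, as for all log2 differences below). In the 6 libraries of the main title series the difference was 2.17-fold.

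Spint2 (chromosome 7, 29256330 to 29281977) was the most abundant of the 8 genes, above 99.6% of the 11315 genes tested. Levels in library order were 717, 571 and 596 scaled FPKM for the 3 controls, and for the cKO libraries in order 1046, 951, 712, 661 and 898. Here the groups overlapped, because cKO 3 and cKO 4 lay under control 1. The means were 628 ± 78.4 and 854 ± 163 (SD), a 1.36-fold difference, 0.43 ± 0.19 on the log2 scale, and 1.21-fold in the main title series.

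Spink12 (chromosome 18, 44104523 to 44108543) was nearly lost from the cKO libraries. Control libraries 1 to 3 read 47.3, 34.4 and 94.4 scaled FPKM, and cKO 1 to 5 read 0.199, 0.793, 0.503, 0.838 and 0.565. No cKO library came near the lowest control. The means were 58.7 ± 31.6 and 0.58 ± 0.257, a 101-fold difference by group means and -5.13 ± 0.29 on the log2 scale, where the added 1 understates it. The cKO values rest on an estimated 8 to 33 fragments per library, so the size of the fold is imprecise; in cKO 1 the deposited FPKM was 0.188 with a 95% interval of 0.0552 to 0.322. Among 13 Spink genes in the tables Spink12 was the 1 gene that met the minimum for testing, 1 scaled FPKM in at least 3 libraries, and did so through its controls alone. Spink8 came next in control, at 0.431 to 1.10 in control and 0 to 1.07 in cKO. Of the 5 Spint genes, Spint1 and Spint2 met it.

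**Figure D1:**
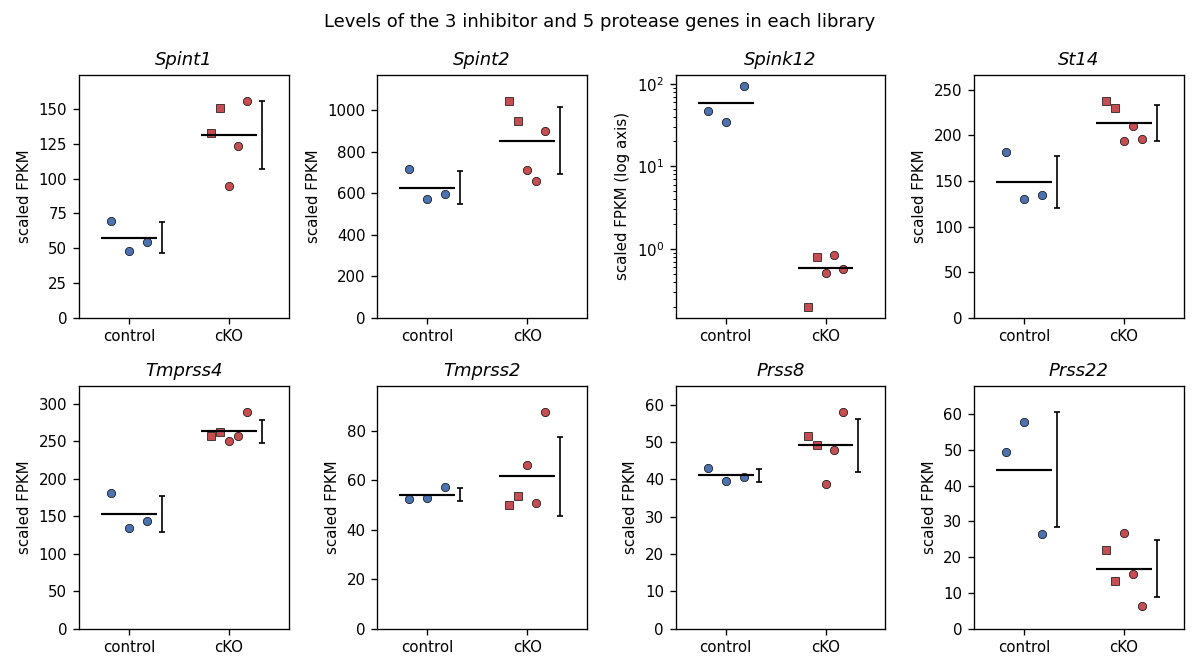
Scaled FPKM (y axes, from 0 except for Spink12, whose axis is logarithmic) of the 3 inhibitor genes and 5 protease genes in control (blue) and cKO (red) libraries; squares are cKO 1 and cKO 2, horizontal lines are means and side bars are the SD (not drawn for Spink12). All 5 cKO points lie above the controls for Spint1, St14 and Tmprss4 and below them for Spink12, and the other 4 genes overlap.

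The promoters of Spint1 and Spint2 are given because the 2 Kunitz inhibitor genes had the same direction of difference while their sizes were unlike. Both are from RefSeq on GRCm38.p6, 250 bases before to 50 after the gene start, 5′ to 3′ on the gene's strand, with matches to GGGCGG on either strand in capitals; 3 of the 8 genes had a promoter in that table.
Spint1, chr2:119237110-119237409, plus strand: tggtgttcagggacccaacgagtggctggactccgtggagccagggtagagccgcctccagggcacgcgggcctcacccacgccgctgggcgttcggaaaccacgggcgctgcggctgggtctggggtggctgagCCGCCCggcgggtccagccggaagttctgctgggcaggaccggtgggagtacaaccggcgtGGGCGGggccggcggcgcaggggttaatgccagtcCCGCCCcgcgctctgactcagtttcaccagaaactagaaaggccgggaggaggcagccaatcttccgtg
Spint2, chr7:29281928-29282227, minus strand: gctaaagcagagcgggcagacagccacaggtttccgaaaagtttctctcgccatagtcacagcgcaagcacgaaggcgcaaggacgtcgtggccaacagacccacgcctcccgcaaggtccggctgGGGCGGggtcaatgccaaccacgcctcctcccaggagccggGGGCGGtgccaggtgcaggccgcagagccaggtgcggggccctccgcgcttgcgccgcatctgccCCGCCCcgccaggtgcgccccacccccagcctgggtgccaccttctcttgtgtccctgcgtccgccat
Each promoter holds 3 matches to GGGCGG, the GC box. At least 1 match on either strand is held by 35.7% of 32851 promoters of this length. The short SMAD-binding letters CAGAC occurred 1 time in Spint1 and 2 times in Spint2, where 49.6% of promoters hold at least 1, and no match overlapped a GC box. AACCGGTT, GGCGCC and TATAAA, found in 0.15%, 11.9% and 13.6% of promoters, had no match in either. The promoter of Tmprss2, the third in the table, held 2 CAGAC and 0 GGGCGG matches. GC content was 69.7% in Spint1, 69.3% in Spint2 and 62.3% in Tmprss2, against a median of 52.7%. Such matches describe the letters in the window and do not show binding.

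Matriptase, encoded by St14 (chromosome 9, 31088590 to 31131799), is the type II transmembrane protease that HAI-1 and HAI-2 restrain. The 3 controls, in order, stood at 182, 130.0 and 135 scaled FPKM, and cKO 1 to 5 at 238, 229.7, 193, 209.8 and 196. All 5 cKO libraries lay above the 3 controls, the closest being cKO 3 and control 1. The means were 149 ± 28.9 and 213 ± 19.8 (SD), 1.43-fold and 0.53 ± 0.14 on the log2 scale, with 1.34-fold in the main title series.

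Tmprss4 (chromosome 9, 45172726 to 45204075), a transmembrane protease studied in carcinomas, showed the least spread among cKO libraries. By library, controls 1 to 3 gave 181, 135 and 143 scaled FPKM, and cKO 1 to 5 gave 256, 263, 250.4, 257 and 289.5. The groups did not overlap, and the highest cKO library was 1.16 times the lowest. The means were 153 ± 24.4 and 263 ± 15.3 (SD), 1.72-fold and 0.79 ± 0.12 on the log2 scale, with 1.74-fold in the main title series. Its locus overlaps that of BC049352, which was at 0.0737 scaled FPKM in control and 0.132 in cKO.

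Prostasin, encoded by Prss8 (chromosome 7, 127925717 to 127930113), is anchored by a lipid tail and acts with matriptase. Levels in library order were 43.0, 39.4 and 40.6 scaled FPKM for the 3 controls, and for the cKO libraries in order 51.6, 49.2, 38.7, 47.8 and 58.1. Of the cKO libraries, 4 lay above all controls and cKO 3 lay below them. The means were 41.0 ± 1.83 and 49.1 ± 7.03 (SD), 1.20-fold and 0.24 ± 0.13 on the log2 scale. Its locus overlaps that of Kat8, which was 7.64, 8.30 and 8.25 in controls 1 to 3, 6.96 in cKO 2, 6.24 in cKO 3 and listed at 0 in the other 3 cKO libraries; the sources used here do not say whether counting used strand, so reads of the shared stretch may be split between the genes.

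Tmprss2 (chromosome 16, 97564682 to 97611195), a protease known in prostate and airway epithelium, had no common direction. Control libraries 1 to 3 read 52.5, 52.8 and 57.2 scaled FPKM, and cKO 1 to 5 read 50.1, 53.7, 66.0, 50.7 and 87.8. Of the 5 cKO libraries, 2 lay above and 2 below all controls, and the spread came mostly from cKO 5. The means were 54.2 ± 2.65 and 61.7 ± 15.9 (SD), a log2 difference of 0.15 ± 0.18 that became -0.05 with TPM scaling and -0.006 with quantile normalization.

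Prss22 (chromosome 17, 23993534 to 23998100), whose secreted tryptase can activate pro-urokinase, was the protease of the set with lower values in cKO. The 3 controls, in order, stood at 49.3, 57.7 and 26.4 scaled FPKM, and cKO 1 to 5 at 22.0, 13.4, 26.8, 15.2 and 6.23. The groups overlapped narrowly, since cKO 3 was just above control 3 and the other 4 cKO libraries lay below all controls. The means were 44.5 ± 16.2 and 16.7 ± 7.96 (SD), 2.66-fold lower and -1.43 ± 0.43 on the log2 scale. That log2 difference was -0.99 with the mean stromal and muscle marker level as a covariate, and -1.76 to -1.14 without 1 library. The cKO libraries ranged 4.31-fold and the controls 2.18-fold, while counting error was small, with deposited 95% bounds at most 10.47% from each value.

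In all, 3 of the 8 genes lay above all controls in each cKO library, and 1 lay below. Over all 11315 tested genes the groups did not overlap for 24.6%, with 11.7% higher and 12.9% lower; since the genes were chosen on this contrast, nothing is read from the counts. The median log2 difference of the 8 genes was 0.335, beside -0.005 over all tested genes.

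Within libraries, the balance between Spint1 and St14 differed between the groups, while that between Spint2 and St14 did not separate them. The ratio of Spint1 to St14 levels was 0.383, 0.368 and 0.406 (controls 1 to 3) and 0.560, 0.656, 0.488, 0.587 and 0.793 (cKO 1 to 5), with no overlap. The ratio of Spint2 to St14 was 4.25 ± 0.273 in control and 3.99 ± 0.577 in cKO (SD), with overlapping groups. Spint1 relative to Spint2 was 0.0910 ± 0.00675 against 0.156 ± 0.0255, and every cKO library lay above every control. Tmprss4 relative to St14 went from 1.03 ± 0.0374 to 1.24 ± 0.154, again without overlap. Spint1 relative to Tmprss4 was 0.375 ± 0.0164 against 0.497 ± 0.0756, and the groups overlapped. They also overlapped for Prss8 to St14 (0.280 ± 0.0384 against 0.231 ± 0.0377) and Spint2 to Prss8 (15.3 ± 1.22 against 17.5 ± 2.71). These ratios do not depend on the scaling between libraries, but come from the same contrast that chose the genes.

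**Figure D2:**
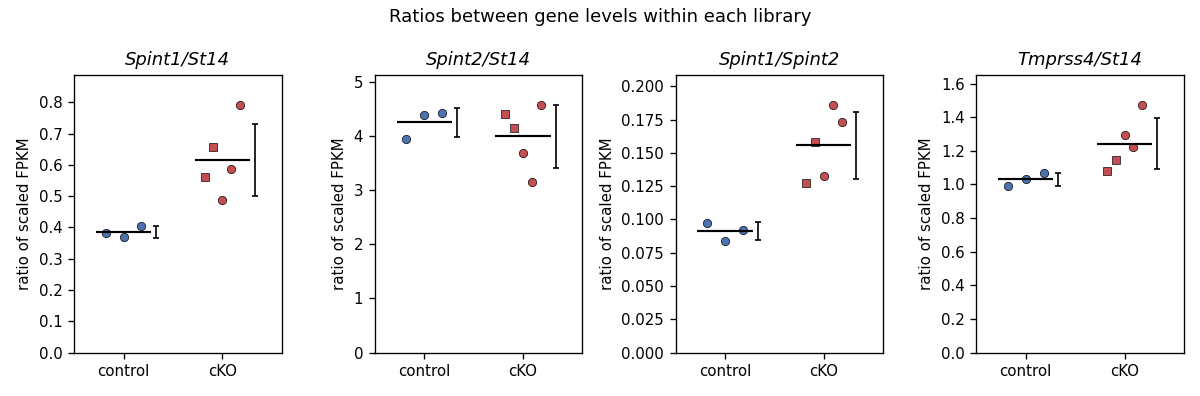
Ratio of scaled FPKM between pairs of genes (y axes, from 0) within each control (blue) and cKO (red) library; squares are cKO 1 and cKO 2, lines are means and side bars the SD. The ratios of Spint1 to St14, Spint1 to Spint2 and Tmprss4 to St14 are higher in all 5 cKO libraries. The ratio of Spint2 to St14 overlaps between groups. Also overlapping, but not drawn, are Spint1 to Tmprss4, Prss8 to St14 and Spint2 to Prss8.

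The 5 protease genes together measured 441 ± 57.6 scaled FPKM in control and 604 ± 26.2 in cKO (SD), and the groups did not overlap. These 5 genes were chosen on this contrast, and over the 11 tested proteases described below the groups overlapped. Tmprss4 made up 34.6% ± 1.82 of the sum of the 5 genes in control and 43.6% ± 1.44 in cKO, and St14 33.6% ± 2.28 and 35.4% ± 3.17. The share of Prss22 was 10.07% ± 3.70 in control and 2.80% ± 1.39 in cKO, without overlap although its level overlapped. Prss8 and Tmprss2 shares overlapped between the groups. Spint1 and Spint2 summed in the same way measured 685 ± 89.5 scaled FPKM in control and 985 ± 179 in cKO (SD), with overlapping groups.

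A list of 24 other membrane-anchored serine protease genes gave the wider family. Of these 23 were in the tables, and 6 met the minimum for testing. Of the 6, 1 was called higher and 2 lower in cKO (limma, Benjamini-Hochberg adjusted p below 0.05). Of all tested genes 14.3% were called, 7.27% higher and 6.98% lower. The list was chosen with earlier results of these data known, so nothing is read from its count. Tmprss11d, which encodes the airway trypsin-like protease, fell from 76.0 ± 14.1 to 12.3 ± 7.74 scaled FPKM (SD; log2 fold change -2.71 ± 0.42, adjusted p = 0.00512). By library, controls 1 to 3 gave 91.3, 63.7 and 73.0, and cKO 1 to 5 gave 19.3, 6.80, 7.07, 22.2 and 6.34, so that all 5 cKO libraries were far below the controls. Tmprss13, a mosaic-type transmembrane protease gene, rose from 2.31 ± 1.04 to 7.62 ± 2.09 (log2 fold change 1.38 ± 0.26, adjusted p = 0.012). Tmprss11b fell from 6.38 ± 4.38 to 1.27 ± 1.36 (-1.71 ± 0.46, adjusted p = 0.0408), with cKO 1 within the control range; 3 controls and 2 cKO libraries reached 1 scaled FPKM. The call of Tmprss11d held under all 21 alternatives; that of Tmprss11b was lost without any 1 control or any 1 of cKO 2 to 5 (adjusted p 0.0562 to 0.125), with quantile normalization (0.0502), a pseudocount of 0.1 (0.051), no filter (0.0789) or the mean stromal and muscle marker level as a covariate (0.17), 11 of 20 alternatives in all, and that of Tmprss13 without control 2 (0.0696) or control 3 (0.0643) and in the main title series (0.0532) or with the stromal covariate (0.0635). The most abundant uncalled genes were Hpn, which encodes hepsin, at 25.7 ± 0.629 against 24.5 ± 3.10 (adjusted p = 0.66; -0.49 and 0.0483 with 1 transcript per gene) and Tmprss11g at 20.4 ± 4.68 against 24.3 ± 8.88 (0.63). Of those below the minimum, Tmprss6 was at 0.595 to 3.00 in control and at 0 to 0.0258 in cKO. Prss30 was also lower, at 0.395 to 0.458 in control and 0.0139 to 0.219 in cKO. Tmprss11a went the other way, from 0.0466 to 0.177 in control to 0.555 to 1.2 in cKO. All 3 were near the floor and not tested.

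Ordered by level, Tmprss4 and St14 led Prss22 and the 10 tested membrane-anchored proteases in control, at overlapping levels, and Tmprss11d followed, separate from both. Next came Tmprss2, Prss22 and Prss8, where the range of Prss22 overlapped both neighbours, then Hpn and Tmprss11g. In cKO Tmprss4 stood apart above St14, and St14 apart above Tmprss2, which overlapped Prss8. Tmprss11d ranked 8 in cKO, after 3 in control, and its range there overlapped that of Prss22. St14 and Tmprss4 together held 49.5% to 54.1% of the summed level of the 11 genes in control libraries and 68.6% to 72.3% in cKO libraries. Tmprss11d held 11.9% to 13.9% in control and 0.896% to 3.37% in cKO.

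**Figure D3:**
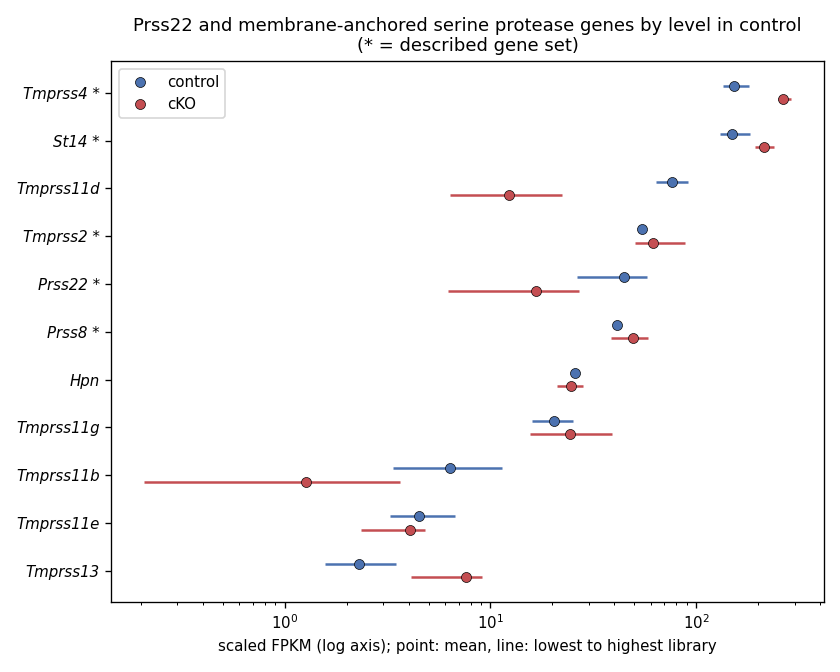
Scaled FPKM (logarithmic x axis) of Prss22 and the 10 tested membrane-anchored serine protease genes, ordered by level in control, with the mean as a point and the lowest to highest library as a line, for control (blue, 3 libraries) and cKO (red, 5 libraries). Tmprss4 and St14 lead in both groups, while Tmprss11d goes from 76.0 to 12.3 and Prss22 from 44.5 to 16.7.

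Of 37 secreted trypsin-like protease genes 11 were tested, and 2 were called higher and 1 lower. Of all tested genes 14.3% were called, 7.27% higher and 6.98% lower. The list was chosen with earlier results of these data known, so nothing is read from its count. Hgfac, which encodes the activator of hepatocyte growth factor that HAI-1 was named for inhibiting, fell from 149 ± 6.38 to 59.8 ± 10.8 scaled FPKM (SD; log2 fold change -1.32 ± 0.15, adjusted p = 0.0015). Levels in library order were 151, 154 and 141 for the 3 controls, and for the cKO libraries in order 69.0, 71.2, 55.4, 44.5 and 58.9, with no overlap. The kallikrein-related peptidase genes Klk10 and Klk11, neighbours on chromosome 7, both rose. Klk10 went from 59.8 ± 10.1 to 217 ± 96.5 (1.76 ± 0.30, adjusted p = 0.00755), with cKO 3 the highest at 380.1. Klk11 went from 27.2 ± 8.63 to 105 ± 25.4 (1.92 ± 0.25, adjusted p = 0.00242). All 3 calls held under the 21 alternatives.

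Among 54 other serine protease inhibitor genes, 22 of the 53 in the tables were tested. Limma called 2 of these higher and 0 lower, where 14.3% of all tested genes were called, 7.27% higher and 6.98% lower. At an unadjusted limma p below 0.05, 5 were higher and 2 lower. That is 7 of 22 genes, where 31.5% of all tested genes passed that threshold (15.9% higher, 15.6% lower). This list was also chosen with earlier results of these data known, so nothing is read from its counts. Wfdc15b, which encodes a protein with a WAP domain, rose from 0.91 ± 0.391 to 7.32 ± 3.72 scaled FPKM (2.04 ± 0.32, adjusted p = 0.00546); it reached 1 scaled FPKM in 1 control and 5 cKO libraries, so that it met the minimum mainly through the group where it was high. Serpinf1, whose product has the serpin fold but no protease inhibitory activity, rose from 96.7 ± 21.3 to 175 ± 35.5 (0.85 ± 0.20, adjusted p = 0.0262). Without control 2, control 3, cKO 1 or cKO 5 the Serpinf1 call was lost (0.129, 0.118, 0.0532 and 0.0536). It was also lost in the main title series (0.0872) and with the title series as a covariate (0.0615) or the stromal covariate (0.0999), 7 of 21 alternatives in all. The most abundant members did not pass: Wfdc2 was 1115 ± 67.5 against 1894 ± 507 (adjusted p = 0.075; 0.0287 without cKO 4, 0.0195 with array weights), App 217 ± 9.99 against 205 ± 11.8 (0.601) and Serping1 164 ± 13.6 against 214 ± 56.1 (0.307).

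Substrates and partners of the membrane proteases, with the sodium channel regulators Sgk1 and Nedd4l, were listed as 22 genes, of which 19 were tested. Of these, 4 were called higher and 1 lower, where 14.3% of all tested genes were called, 7.27% higher and 6.98% lower. Since the lists were chosen with earlier results of these data known, nothing is read from the count. Of the 4, Scnn1g met the minimum through its cKO libraries alone, so its call is set aside and its p is not given. Scnn1b, which encodes a subunit of the epithelial sodium channel, rose from 6.62 ± 0.479 to 14.6 ± 3.46 scaled FPKM (1.01 ± 0.16, adjusted p = 0.00549). Scnn1g, the subunit known to be cut by prostasin, was 0.132 ± 0.0405 in control and 1.34 ± 0.51 in cKO. Regulators of the channel rose as well, Sgk1, a kinase that keeps it at the surface, from 6.73 ± 3.05 to 14.9 ± 1.26 (adjusted p = 0.0108) and Nedd4l, a ubiquitin ligase that removes it, from 6.13 ± 0.525 to 10.3 ± 1.04 (adjusted p = 0.00517). Lama3, a laminin chain of the epithelial basement membrane, fell from 45.9 ± 4.35 to 17.6 ± 5.97 (-1.40 ± 0.26, adjusted p = 0.0108). Epcam, a matriptase substrate, was 478 ± 12.7 against 455 ± 58.3 (0.727), and Cldn7 628 ± 55.0 against 748 ± 121 (0.335). Without control 2 the call of Sgk1 (0.0652) was lost, and without control 3 those of Sgk1 (0.0567) and Lama3 (0.0567; 0.0648 with the stromal covariate), while the call of Nedd4l was lost when 1 transcript per gene was used (0.0893).

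**Figure D4:**
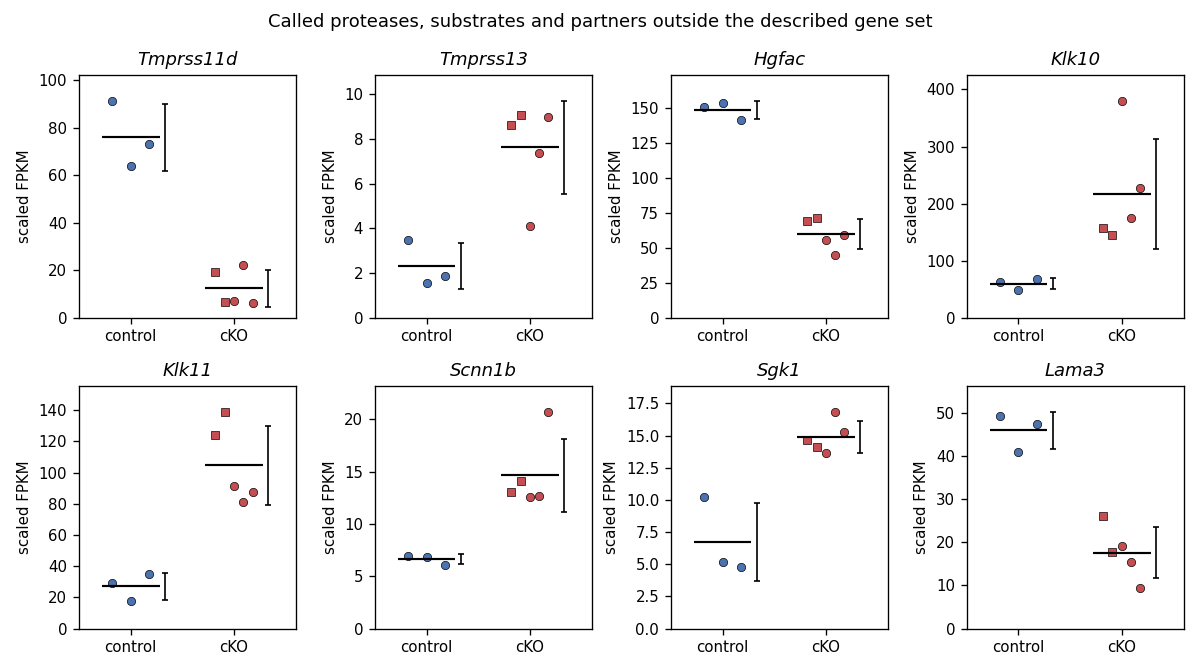
Scaled FPKM (y axes, from 0) of 8 called genes in control (blue) and cKO (red) libraries. They come from the lists of other membrane proteases, secreted proteases, and substrates, partners and channel regulators. Squares are cKO 1 and cKO 2, lines are means and side bars the SD. All 5 cKO points lie below the controls for Tmprss11d, Hgfac and Lama3 and above them for Tmprss13, Klk10, Klk11, Scnn1b and Sgk1.

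By the likeness of their log2 levels over the 8 libraries (root mean square distance after centring each gene), Spint1 was closest to Fxyd3, at 0.124. Among the 3 genes nearest to Spint2 were Rps21 and Rpsa, which encode ribosomal proteins, each at 0.078. The nearest gene was Fkbp2 for St14 (0.053), Tfcp2l1 for Tmprss4 (0.079), Stx7 for Tmprss2 (0.089) and Kcnn4 for Prss22 (0.347). For Prss8 it was the gene listed as Deb1 (0.05). Spink12 was closest to Cyp21a1 (0.508), which was 46.0 scaled FPKM in control and 0.453 in cKO. Acat3 and Fdft1 came after it and were listed at 0 in all cKO libraries. Such an exact 0 can be a failed estimate, so the likeness of Acat3 and Fdft1 to Spink12 is uncertain. Fxyd3 went from 418 to 1021 by group means. For scale, the 8 genes' own root mean square deviations over the libraries ran from 0.192 (Prss8) to 2.515 (Spink12). The compared levels hold the group difference on which the 8 genes were chosen, and shared regulation was not tested.

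On the chromosome, the nearest tested gene before Spint1, Ppp1r14d at 7.5 kb, was called higher, from 10.54 ± 1.86 to 33.2 ± 13.7 scaled FPKM (SD; log2 fold change 1.48 ± 0.32, adjusted p = 0.0188). Zbtb44, 12.7 kb from St14, was called higher at 0.37 ± 0.10 (adjusted p = 0.0453). None of the other 14 nearest tested neighbours of the 8 genes, 1 on each side, was called by limma, so that 12.5% of the 16 were called, near the 14.3% of all tested genes. The tested gene nearest to Spink12 lay 272 kb away, where Dcp2 was 7.12 against 6.01 by group means (adjusted p = 0.248). The neighbours were named by position after the values of the 8 genes had been seen.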

How the data were processed

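Per the labels' protocols, cDNA was made from total RNA with random and poly-dT primers and sequenced on an Illumina HiSeq. The submitters' processing notes list mm10, Cufflinks, TopHat and bcl2fastq 1.8.3; the sources used here give no other version and no strand setting. The authors deposited FPKM with 95% bounds per RefSeq transcript (34535), per the file headers. Depth was estimated from the width of those bounds; the deposited coverage signal was used only as a check of relative depth.

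FPKM was summed per gene symbol. Libraries were scaled by median ratios, taken over 9939 genes at FPKM 1 or more in every library (factors 0.924 to 1.06), and 15 genes with a status other than OK were left out. Genes at 1 scaled FPKM or more in at least 3 libraries were tested with limma 3.58.1 (R 4.3.3) on log2(scaled FPKM + 1), variance trend, two-sided, Benjamini-Hochberg adjustment over all 11315; the fit was tested on simulated data. No count test was run.

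The 8 genes and the lists were chosen with earlier results of these data known. Named are the 8 genes, Smad2 and Smad3, up to 6 called and the 3 most abundant tested genes of each of 4 lists, and the 3 genes nearest in pattern; neighbours were added later, and 2 genes that the rule names are not reported here. Replicate numbers only name libraries. Start positions are 1-based. Alternatives changed the scaling, pseudocount, filter, transcript choice, variance model, weights, status rule, libraries or covariates.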

Additional observations from a re-analysis of the deposited data

Results flagged for a closer look

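In 2 of 55 genes examined, 1 of the 5 cKO libraries stood far from the other 4, where chance flags about 1 in 20 groups. Scnn1b was at 20.7 scaled FPKM in cKO 5, and the next highest cKO library was at 14.1. Tmprss11b was at 3.63 in cKO 1, and the next highest was at 1.15. None of the 8 genes had such a library.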

How the results depend on the processing

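No paired analysis was possible because the labels give no numbers shared between control and cKO libraries. Over 21 alternatives the log2 differences of Spint1, Spint2, St14, Prss8 and Tmprss4 stayed positive and those of Prss22 and Spink12 negative, while Tmprss2 turned slightly negative with TPM and with quantile normalization. Spink12 had no value when a control was left out, since it then missed the minimum. TPM, which moved the median of all genes to -0.20, gave 0.32 for St14, 0.042 for Prss8, 0.59 for Tmprss4 and -5.99 for Spink12; quantile normalization gave 0.078 for Spint2, 0.26 for St14 and 0.52 for Tmprss4; a pseudocount of 0.1 gave -6.41 for Spink12. 

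Over all genes 823 were called higher and 790 lower, against 512 and 1616 with TPM (24.1% of calls higher in place of 51.0%), 344 and 294 with the stromal and muscle marker mean as covariate (stromal term), and 1793 and 1733 with array weights. Leaving out 1 library gave 238 to 935 higher and 176 to 892 lower, with the fewest without control 2 (238 and 186) or control 3 (243 and 176), and 437 lower without control 1.

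Of other membrane proteases 2 were higher with TPM or no filter, and 0 in the main title series or with the stromal term; 4 were lower with TPM and 1 with quantile normalization, pseudocount 0.1, a filter at 5 or the stromal term. Leaving out 1 library gave 0 to 1 higher and 1 to 2 lower. Secreted proteases had 4 higher with TPM. Other inhibitors had 1 higher in the main title series, with the series or the stromal term, 5 with array weights and 1 to 3 without 1 library; 2 were lower with TPM or array weights, 1 with no filter and 0 to 1 without 1 library. Substrates, partners and channel regulators had 2 lower with unscaled FPKM, TPM, quantile normalization or a filter at 5, and 0 with the stromal term. Without 1 library, 2 to 4 of them were higher and 0 to 2 lower. The counts of higher genes include the call of Scnn1g, set aside above, wherever that call was made.

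Among the uncalled genes reported, log2 fold changes that changed sign were those of Tmprss11g (-0.075 in the main title series or with the series term), App (0.19 with 1 transcript per gene), Epcam (0.022 with the stromal term), Cldn7 (-0.12 with quantile normalization) and Smad3 (-0.12 with TPM, -0.19 in the main title series or with the series term, -0.019 with array weights, -0.049 to 0.204 without 1 library, lowest without cKO 1). The cause of these shifts was not tested. Depth limits Spink12 in cKO.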
